A study of Canis lupus familiaris with 12 samples.

Results

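This report concerns the immediate early and AP-1 genes of lymph nodes from dogs with sinonasal cancer. They were chosen by probe name, as every probe whose name starts with FOS, JUN or DUSP, or with EGR and a digit, and the choice was made with their levels in the 2 groups below already known. The rule found 4 of the 800 probes of the panel, FOS, EGR1, DUSP1 and DUSP6, and 0 whose name starts with JUN. All values of the 4 genes from this comparison are therefore descriptions, and no test is given for them.

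The study compared 2 groups, each of 6 samples from 3 dogs. In the irradiated group, the tumor received 3 fractions of stereotactic body radiation therapy (SBRT), each of 10 Gy, which were also given, as elective nodal irradiation (ENI), to the submandibular and retropharyngeal lymph nodes of both sides. In the non-irradiated group, the same SBRT was given to the tumor only. The nodes were removed from the same side as the tumor 2 weeks after SBRT, so a radiation-treated tumor is common to both groups and no node from an untreated dog was compared. The dogs were client-owned patients of 7 to 14 years with irradiated nodes and of 3 to 9 years with non-irradiated nodes, so treatment and age cannot be told apart here. RNA was counted with NanoString nCounter, in which fluorescent barcodes hybridised to each transcript are counted without amplification. Each gene is described by the authors' mean and the authors' SD over the samples of a group, both in normalized counts. Depth per sample is unknown, and no value of a single sample or dog was used.

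Immediate early genes are transcribed within minutes of a stimulus from factors already present in the cell. A main route runs through the MAP kinases ERK, JNK and p38, which phosphorylate partners of serum response factor on the promoters of FOS and EGR1. FOS pairs with a JUN protein to form the transcription factor AP-1, and EGR1 is a zinc finger transcription factor; in lymphocytes both are induced by antigen receptor signalling. DUSP1 and DUSP6 are phosphatases that switch MAP kinases off again and are themselves induced through this route, which makes them feedback inhibitors.

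The transcription factor FOS had an authors' mean of 540.04 normalized counts in irradiated nodes (SD 318.44) and 1408.76 in non-irradiated nodes (SD 722.16). Its level was thus 2.61-fold lower in irradiated nodes, a log2 ratio of -1.38 ± 0.39 (SE over samples). The spread was wide in both groups, so that 1 SD about the mean covered 221.6 to 858.48 in irradiated and 686.6 to 2130.92 in non-irradiated nodes, and these ranges overlapped. FOS had the 5th lowest log2 ratio of the 780 endogenous genes.

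EGR1 showed a difference of similar direction with a different pattern of spread. Its authors' mean was 301.16 normalized counts in irradiated nodes (SD 61.94) and 596.12 in non-irradiated nodes (SD 325.31). This is a 1.98-fold lower level in irradiated nodes (log2 ratio -0.99 ± 0.30 SE over samples), rank 17 from the lowest. The SD was 5.25 times as large in non-irradiated nodes, where the samples ranged widely about the mean, and 1 SD about the mean covered 239.22 to 363.1 in irradiated and 270.81 to 921.43 in non-irradiated nodes.

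DUSP1 is a nuclear phosphatase that inactivates p38 and JNK and is also induced by glucocorticoids and stress. Its authors' mean was 533.44 normalized counts in irradiated nodes (SD 106.57) and 1000.19 in non-irradiated nodes (SD 253.81). The level was 1.87-fold lower in irradiated nodes, with a log2 ratio of -0.91 ± 0.18 (SE over samples), rank 23 from the lowest. Here the ranges of 1 SD about the mean did not overlap, at 426.87 to 640.01 in irradiated and 746.38 to 1254 in non-irradiated nodes.

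DUSP6, a cytoplasmic phosphatase that acts on ERK, differed least. Its authors' mean was 1098.95 normalized counts in irradiated nodes (SD 66.5) and 1405.53 in non-irradiated nodes (SD 340.54), a 1.28-fold lower level in irradiated nodes and a log2 ratio of -0.35 ± 0.14 (SE over samples), rank 171. The ranges of 1 SD about the mean, 1032.45 to 1165.45 in irradiated and 1064.99 to 1746.07 in non-irradiated nodes, overlapped in part. DUSP6 stood out from the others by how little it varied among irradiated nodes, where its SD was 6.05% of the mean, against 24.2% in non-irradiated nodes.

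**Figure D1:**
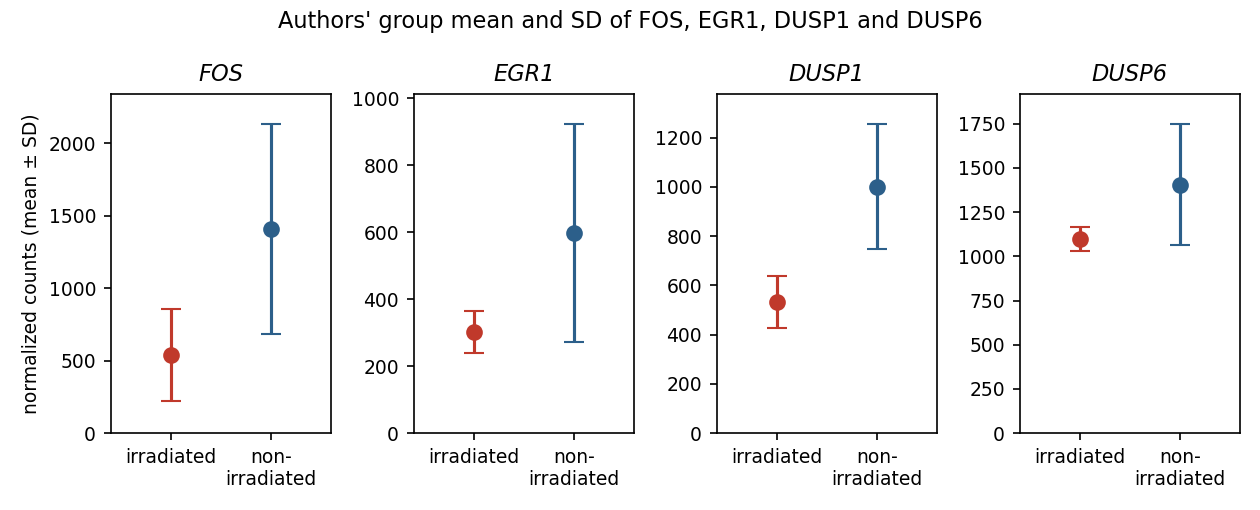
Authors' group mean (point) and SD (bar) in normalized counts for FOS, EGR1, DUSP1 and DUSP6, irradiated nodes at the left of each panel and non-irradiated nodes at the right; each group holds 6 samples of 3 dogs, and each panel has its own axis from 0. All 4 means are lower in irradiated nodes, and only for DUSP1 do the bars not overlap.

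All 4 genes were lower in irradiated nodes, where 54.9% of the 780 endogenous genes had a log2 ratio under 0. A log2 ratio under -1 was found for 1 of the 4, FOS, against 1.92% of endogenous genes. With the mark set at -0.9, just above the ratio of DUSP1, it was 3 of the 4, all but DUSP6, against 2.95%, and both marks were chosen after the values were seen. Ranges of 1 SD that did not overlap were found for 1 of the 4, DUSP1, against 5.64%. The median log2 ratio of the 4 genes was -0.95, against -0.05 over all endogenous genes. The genes had been picked with these ratios known, so the counts are given as a description only. The errors above take the 2 samples of a dog as independent and are too small where these resemble each other, and no error over dogs could be measured.

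**Figure D2:**
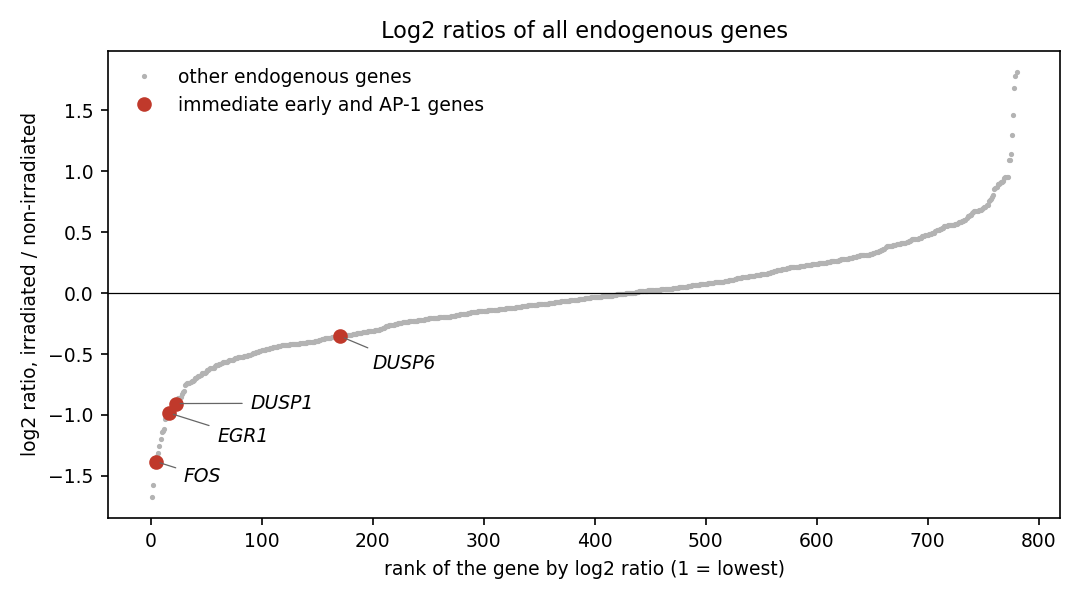
Log2 ratio, irradiated over non-irradiated (vertical axis) for the 780 endogenous genes in rank order (horizontal axis, lowest first), with the 4 genes marked in red. FOS at rank 5, EGR1 at rank 17 and DUSP1 at rank 23 lie in the lower tail, and DUSP6 at rank 171 does not.

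The genes also differed in how much the samples of a group varied. To compare spread between levels, each SD was turned into an SD on the log2 scale. FOS was variable in both groups, with a log2 SD of 0.71 in irradiated and 0.64 in non-irradiated nodes, where the median gene had 0.32 and 0.43. EGR1 was close to the median gene in irradiated nodes (0.29) and above it in non-irradiated nodes (0.67). DUSP1 lay below the median in both groups, at 0.28 in irradiated and 0.35 in non-irradiated nodes. DUSP6 had 0.09 in irradiated nodes, rank 759 of 780 from the highest, and 0.34 in non-irradiated nodes. Thus 3 of the 4 genes, all but FOS, had the larger log2 SD in non-irradiated nodes, as had 65.4% of endogenous genes.

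**Figure D3:**
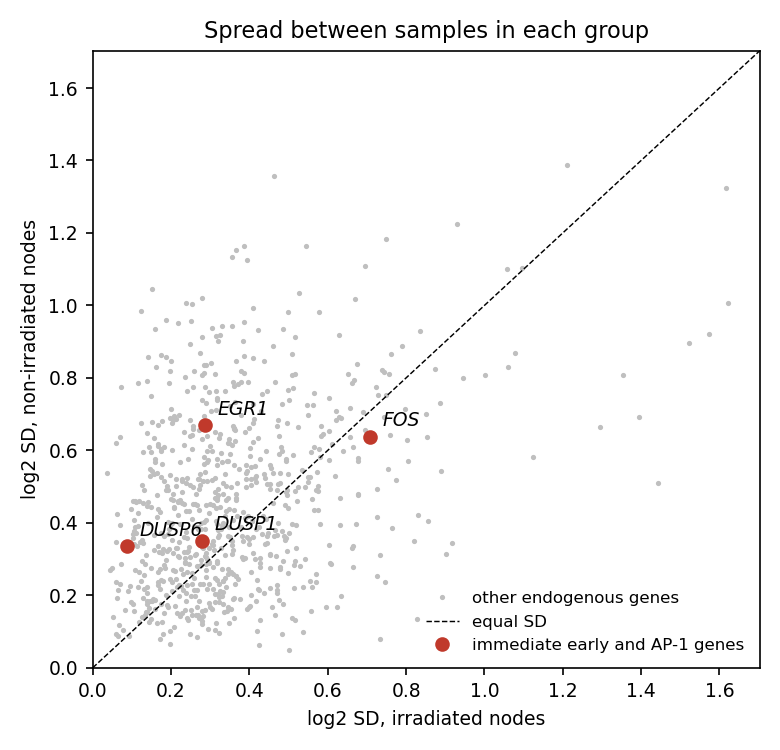
SD on the log2 scale in irradiated nodes (horizontal axis) and non-irradiated nodes (vertical axis) for each endogenous gene, with the 4 genes in red and a dashed line at equal SD. EGR1, DUSP1 and DUSP6 lie above the line and FOS just below it.

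The genes nearest to each of the 4 in log2 ratio and in both log2 SDs were looked up among the 715 other genes at or above 20 normalized counts in both groups. This likeness rests on group values of 2 groups and describes no pattern over single samples. FOS lay nearest to the co-receptor chain CD8A (log2 ratio -1.41, distance 0.15 log2 units), followed by the protease CTSW of cytotoxic lymphocytes (-1.20, distance 0.26) and the macrophage lectin SIGLEC1 (-1.26, distance 0.28). EGR1 lay nearest to the immunoglobulin heavy chain IGHM (-1.03, distance 0.11), the integrin ITGAE (-0.80, distance 0.20) and the lymphocyte receptor CD84 (-0.90, distance 0.20). DUSP1 was matched most closely by the lymphocyte receptor CD96 (-0.93, distance 0.06), the growth factor receptor PDGFRB of mesenchymal cells (-0.92, distance 0.11) and the complement component C2 (-0.86, distance 0.11). The genes nearest to DUSP6 were the tetraspanin CD81 (-0.41, distance 0.07), the endothelial adhesion gene ICAM2 (-0.33, distance 0.08) and the cytokine IL34 (-0.37, distance 0.09).

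The other genes of the route were examined for differences between the 2 groups, since group values cannot show whether they varied with the 4. They were tested with limma's moderated test over samples, computed from the authors' means and SDs and adjusted over all 780 endogenous genes. Of the 776 endogenous genes outside the 4, 13 (1.68%) passed the threshold of 0.05 as lower and 13 (1.68%) as higher in irradiated nodes. The split depended on the setting. It stayed near even with housekeeping genes included (15 lower, 13 higher) and with the delta method for the log2 SD (8 lower, 7 higher). The same held for ratios centred on the housekeeping median (12 lower, 13 higher) or the endogenous median (11 lower, 13 higher). The methods' t-test gave 23 lower and 11 higher, and separate variances 18 lower and 10 higher. Genes at or above 20 normalized counts gave 23 lower and 13 higher, and Benjamini-Yekutieli adjustment 5 lower and 2 higher. Unadjusted p-values gave 101 lower and 66 higher. A test over dogs was not possible without a value per dog. As arithmetic only, the same group SDs with n set to 3 per group left 0 genes past limma's adjusted threshold and 47 at an unadjusted p under 0.05, so every call below rests on counting 6 samples per group.

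Of the MAP kinase route, with its feedback inhibitor SPRY2, 20 genes were measured. In irradiated nodes 15 were lower and 5 higher (median log2 ratio -0.16), where 54.9% of the 780 endogenous genes were lower. Of the 20 genes, 1 passed as lower and 0 as higher. SPRY2, a feedback inhibitor of receptor tyrosine kinase signalling to ERK, fell to an authors' mean of 64.89 normalized counts in irradiated nodes (SD 7.69), against 104.98 in non-irradiated nodes (SD 24.21; log2 ratio -0.69 ± 0.17 SE, adjusted p = 0.0377), although it fell short of the threshold with ratios centred on the endogenous median (adjusted p = 0.0507), with the delta method for the log2 SD (0.0567) and with Benjamini-Yekutieli adjustment (0.273). Of the kinases, MAP2K1, which activates ERK, did not pass (-0.51 ± 0.14 SE, adjusted p = 0.0600). The kinase MAPK3 (-0.36 ± 0.31 SE, adjusted p = 0.533) and the p38 gene MAPK14 (-0.02 ± 0.12 SE, adjusted p = 0.944) did not pass either. The 3 most abundant genes of the list, MAPK8, NRAS and MAP3K1, had log2 ratios of 0.40, 0.16 and -0.40 and did not pass. MAPK8, which encodes JNK1, had an SD of 3210.94 about an authors' mean of 1730.26 normalized counts in non-irradiated nodes.

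Other primary response genes, which like FOS and EGR1 are induced without new protein synthesis, were split. Of 15 measured, 8 were lower and 7 higher, with a median log2 ratio of -0.18, and 1 passed as lower and 0 as higher. PTGS2, the inducible cyclooxygenase, fell to 131.84 normalized counts in irradiated nodes (authors' mean, SD 52.28), against 263.17 in non-irradiated nodes (SD 62.85; log2 ratio -0.997 ± 0.240 SE, adjusted p = 0.0373), but it did not pass with unmoderated variances, pooled (adjusted p = 0.0518) or separate (0.0733), with the delta method (0.0750) or with Benjamini-Yekutieli adjustment (0.270). The NF-kappaB inhibitor NFKBIA (-0.38 ± 0.18 SE, adjusted p = 0.241), the ubiquitin editing enzyme TNFAIP3 (-0.45 ± 0.26 SE, adjusted p = 0.357) and MYC (-0.33 ± 0.15 SE, adjusted p = 0.228) had negative ratios and did not pass. Inflammatory genes of the list went both ways. IL6 (0.78 ± 0.29 SE, adjusted p = 0.131), CXCL8 (0.70 ± 0.41 SE, adjusted p = 0.353) and IRF1 (0.29 ± 0.18 SE, adjusted p = 0.391) had positive ratios and did not pass. The chemokine CCL2 (-0.73 ± 0.27 SE, adjusted p = 0.127) and ICAM1 (-0.48 ± 0.28 SE, adjusted p = 0.353) had negative ratios and did not pass. The cytokines IL1B (0.28 ± 0.38 SE, adjusted p = 0.719) and TNF (0.09 ± 0.25 SE, adjusted p = 0.875) did not pass either.

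A list of 10 genes held bZIP factors, the class to which FOS and its partners belong, together with transcriptional coactivators. Of the 10, 6 were lower and 4 higher (median log2 ratio -0.10), and 0 passed in either direction. The 3 most abundant were the factor MAF (-0.40 ± 0.35 SE, adjusted p = 0.546), the acetyltransferase EP300 (-0.47 ± 0.14 SE, adjusted p = 0.0679) and CREB1 (0.13 ± 0.13 SE, adjusted p = 0.604). BATF, which competes with FOS for JUN partners in lymphocytes, was measured near 20 normalized counts in both groups and did not pass (-0.14 ± 0.27 SE, adjusted p = 0.815).

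Downstream, 16 genes known as targets of AP-1 or EGR1 were measured, of which 9 were lower and 7 higher (median log2 ratio -0.15). The cell cycle inhibitor CDKN1A alone passed, and it was higher, at an authors' mean of 371.4 normalized counts in irradiated nodes (SD 58.07) and 196.84 in non-irradiated nodes (SD 31.92; log2 ratio 0.92 ± 0.16 SE, adjusted p = 0.00485). CDKN1A is induced by p53 as well. The matrix gene FN1 (-0.20) and the adhesion gene ICAM1 (-0.48), both among the most abundant of the list, did not pass.

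DUSP1 is also a glucocorticoid target, and 5 other genes of that axis were measured, 3 higher and 2 lower (median log2 ratio 0.02). HSD11B1, the enzyme that regenerates active glucocorticoid, rose to 193.33 normalized counts in irradiated nodes (authors' mean, SD 35), against 54.91 in non-irradiated nodes (SD 29.9; log2 ratio 1.82 ± 0.27 SE, adjusted p = 0.00151), and it was the only one of the 5 that passed. ANXA1, a glucocorticoid-induced anti-inflammatory protein, did not pass (log2 ratio 0.90 ± 0.32 SE, adjusted p = 0.116), nor did the chemokine receptor CXCR4 (0.02 ± 0.17 SE, adjusted p = 0.963). The 2 lower genes, NFKBIA (-0.38 ± 0.18 SE, adjusted p = 0.241) and IL1R2 (-0.36 ± 0.40 SE, adjusted p = 0.655), did not pass either.

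**Figure D4:**
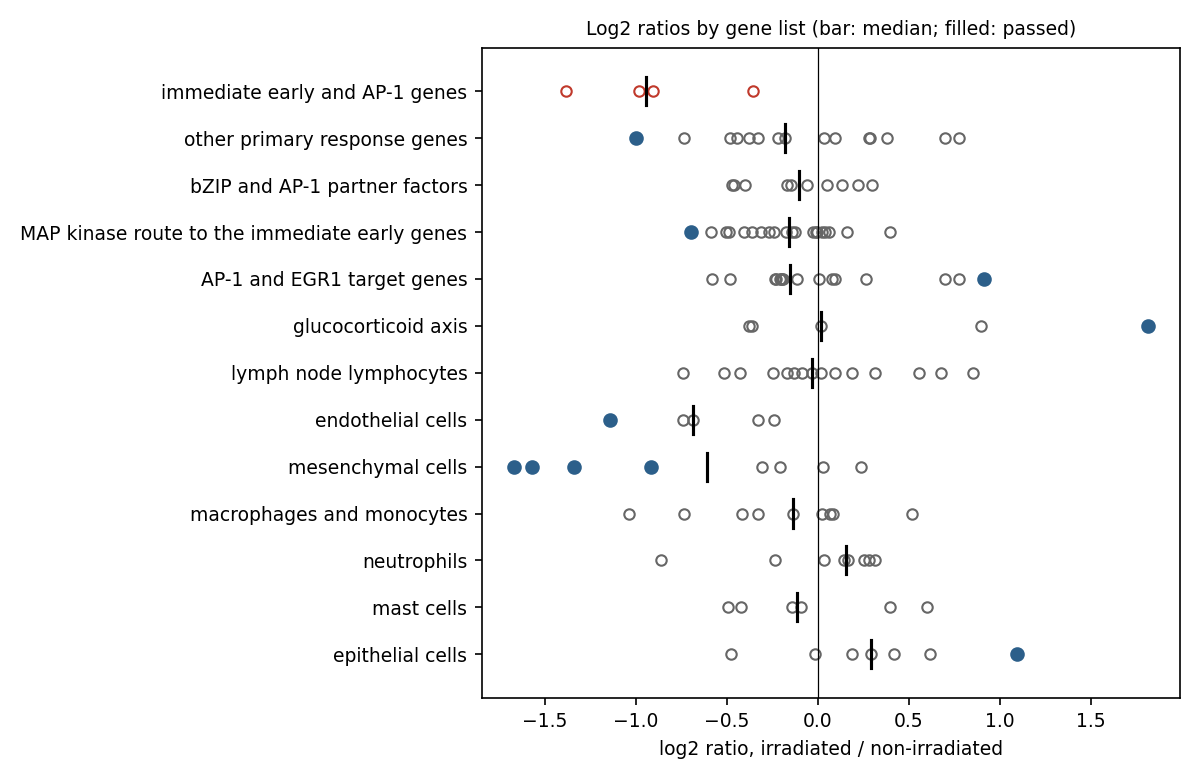
Log2 ratio, irradiated over non-irradiated, for the 4 genes (red circles, not tested) and for the measured genes of 12 lists, 1 row each; filled circles passed limma's moderated test over samples and black bars mark medians. The 4 genes lie at -0.35 and below, the genes of the signalling lists spread to both sides of 0, and the endothelial list lies wholly below it.

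The nodes were labelled as lymph node, although 1 protocol text of the labels speaks of tumor tissue, and they carried lymph node markers. All 15 markers of lymphocytes and of the chemokines that place them in the node were measured, each at or above 217.47 normalized counts in both groups. Their summed authors' mean was 53710.4 in irradiated and 49426.1 in non-irradiated nodes, and 0 passed. Without the chemokines CXCL13, CCL19 and CCL21, which stromal cells also make, the sum of the other 12 was lower in irradiated nodes, at 30225.8, against 32434 in non-irradiated nodes, a split made after the values were seen. Some markers of other cell types also differed between the group means, most of them without passing. All 5 endothelial markers were lower (summed authors' mean 2382.03 in irradiated, 3031.88 in non-irradiated nodes), and CDH5, the cadherin of endothelial junctions, passed (log2 ratio -1.14 ± 0.18 SE, adjusted p = 0.00209). For the 8 mesenchymal markers, of which 6 were lower, the sum was 5793.63 in irradiated and 10205.8 in non-irradiated nodes. The stromal chemokine CXCL12, the growth factor receptors PDGFRA and PDGFRB and the complement component C7 passed, with log2 ratios of -1.34, -1.67, -0.92 and -1.57, PDGFRB not with Benjamini-Yekutieli adjustment (adjusted p = 0.0872). Much of the lower sum came from CXCL12, at 1882.05 in irradiated and 4766.83 in non-irradiated nodes. The 2 higher markers were the collagen genes COL1A1 (log2 ratio 0.24) and COL3A1 (0.03), which did not pass. The 9 macrophage markers, 5 of them lower, summed to 3464.02 in irradiated and 5433.45 in non-irradiated nodes, and 0 passed. The scavenger receptor MARCO made up much of this, at 1109.23 in irradiated (SD 2196.84) and 2272.34 in non-irradiated nodes (SD 1296.17). Neutrophil markers, 6 of 8 higher, summed to 1993.24 in irradiated and 1814.02 in non-irradiated nodes, and 0 passed. Mast cell markers, 4 of 6 lower, summed to 466.43 in irradiated and 508.83 in non-irradiated nodes, and 0 passed. Epithelial markers, 5 of 7 higher, summed to 601.7 in irradiated and 550.92 in non-irradiated nodes, and the keratin KRT18 passed as higher (log2 ratio 1.09 ± 0.23 SE, adjusted p = 0.0215), though not with separate variances (adjusted p = 0.0586) or Benjamini-Yekutieli adjustment (0.156). The lowest group mean of any marker was 8.43, that of the epithelial marker MUC1 in non-irradiated nodes, against 10.33 in irradiated nodes. The mast cell marker HDC was at 15.71 in irradiated and 17.3 in non-irradiated nodes. MUC1 and HDC thus lay under 20 normalized counts in both groups. No background level was set, so whether MUC1 and HDC were expressed was not tested. In RNA from whole nodes, fewer cells of a type and less RNA per cell cannot be told apart, and the part of these markers in the levels of FOS, EGR1, DUSP1 and DUSP6 was not tested.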

How the data were processed

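The labels placed 12 lymph node samples in 2 groups of 6 samples from 3 dogs, 2 samples per dog, with no statement of what sets the 2 apart. RNA was measured by the authors on the NanoString Canine IO 360 panel and analysed in nSolver (version and settings: not given in the sources used here). The table is a ratio export. Per the file headers, the deposited signal of each probe is 1 mean per group in normalized counts, with its SD. Over the 20 housekeeping genes the mean log2 ratio was -2.62e-05, as would follow if samples were scaled to these genes and the group value were a geometric mean. Single housekeeping genes ranged in log2 ratio from -0.45 to 0.63, a range that holds the ratio of DUSP6 (-0.35). The authors' folds, limits and p-values were deposited too and were not used.

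Each SD was turned into a log2 SD by the lognormal relation. All 780 endogenous genes were fitted with limma (version 3.58.1, R 4.3.3), using variances moderated across genes, 6 samples per group, a two-sided test and Benjamini-Hochberg adjustment with a threshold of 0.05. Because the samples of a dog may resemble each other, these p-values may be too small. How much of the spread behind them is technical is unknown. The SE of FOS, EGR1, DUSP1 and DUSP6 is unmoderated, that of other genes moderated. Genes past the threshold were counted outside these 4, a restriction made after the calls had been seen. The fit was also run on simulated data, with the same SD for a gene in both groups, unlike the real groups. No result here rests on that run. Of 800 probe names, 773 matched a symbol of the RefSeq table for assembly UU_Cfam_GSD_1.0. The genes, lists and tests were chosen with earlier results of these data known. Named were all 4 genes, genes of the signalling lists past the threshold, the 3 most abundant genes of each such list, and the 3 genes nearest to each of the 4, except that some results are not reported here. MAP2K1, MAPK3, MAPK14, MYC, IL6, CXCL8, CCL2, TNF, IL1B, BATF, IL1R2, MARCO, COL1A1, COL3A1, MUC1, HDC and the cell type markers past the threshold were named after their values were seen.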

Additional observations from a re-analysis of the deposited data

How the results depend on the processing

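Against 26 genes past the threshold outside the 4, 0 passed when n was set to 3 per group on the same SDs. This is arithmetic only and no measurement over dogs. Were the 2 samples of a dog identical, the SD over dogs would be larger than the SD used, so it is not exactly that case. Of 10 list genes past the threshold, 0 passed with n set to 3 in this way. The delta method, which by its formula gives every gene a larger log2 SD, left 15 (8 lower), all of them among the 26. Benjamini-Yekutieli adjustment gave 7 and unadjusted p-values 167, by their strictness. The other settings gave 24 to 36. The unmoderated methods' t-test gave 34, of which 19 were among the 26, and separate variances gave 28, of which 16 were. The log2 ratios of the 4 genes kept their sign and moved by less than the spread between samples under both centrings and with 20 normalized counts added. This could hardly have come out otherwise and is no check of the ratios. Each centring subtracts the same small amount (-0.03 or -0.05) from the log2 ratio of every gene, and every group mean of the 4 genes was 301.16 or more. The count of the 4 genes under the log2 ratio mark was 1 at -1 and 3 at -0.9, a mark added after seeing the data. Ranges that did not overlap were found for 1 of the 4 genes with 1 SD. With 1 SD on the log2 scale they were found for 3 (FOS, EGR1 and DUSP1, beside 6.67% of endogenous genes). With 1 standard error over samples, or with n set to 3, they were found for 4 (beside 23.5% and 14.7%), since such ranges are narrower. No sample or dog could be left out, since only group values were used. No paired analysis was possible because no dog gave nodes to both groups.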
